A study of Mus musculus with 9 samples.

Results

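The genes of glycolysis and of pyruvate control were followed as regions of open chromatin in mouse embryonic stem cells. A counted region was taken when it lay in the RefSeq span of 1 of 34 genes, or within 50 kb of it, with that gene as the nearest protein-coding gene. This gave 298 regions of the 157497 in the count table (0.189%), all of which were tested. Of these, 61 regions lay within 1 kb of either end of their gene, and the other 237 lay farther from the ends, 132 of them inside the gene and 105 outside it. Regions away from the ends can still lie within 1 kb of an annotated start inside the span. Among them were the most accessible start regions of Aldoa, Eno3, Hk1, Ldha, Pfkfb2, Pfkfb3, Pfkfb4 and Pfkp. All 34 genes had at least 1 region, 32 had one at a gene end and 31 had one away from the ends.

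Accessibility was measured by ATAC-seq, in which a transposase cuts open DNA and leaves sequencing adapters there, in 9 libraries that formed 3 groups of 3. Group NanogKO (code 44C6) was a Nanog knockout, group NanogKO:Esrrb (44J) was the knockout with Esrrb, and group NanogKO:Esrrb:Nanog (44JN) was the knockout with Esrrb and Nanog. Both factors bind DNA and help to keep these cells pluripotent, and all 9 libraries share the Nanog knockout background by their group names. All groups were untreated and grew in medium with 10% fetal bovine serum, LIF at 1000 U/ml, 2 mM glutamine and 1 mM sodium pyruvate, and all were sorted as PECAM-positive, PDGFRA-negative cells. The labels give NanogKO 1 cell line name (N{delta}) and both other groups another shared name (N{delta}:cE:iN), so the added factors and the named line cannot be told apart in a comparison with NanogKO. How the factors were expressed is not stated in the labels. No label ties the replicates to separate cultures, so the p-values cover only variation among these libraries, possibly technical. A further 3 of the 12 samples that the series counts were not analysed here.

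Glycolysis turns glucose into pyruvate in the cytosol. Glucose enters through transporters and is trapped by hexokinases, phosphofructokinase commits it to the pathway, and pyruvate kinase makes the pyruvate at its end. Pyruvate then either becomes lactate, which leaves the cell through monocarboxylate transporters, or enters mitochondria, where the pyruvate dehydrogenase complex turns it into acetyl-CoA and is switched off by pyruvate dehydrogenase kinases. Mouse embryonic stem cells are known to run glycolysis at a high rate beside respiration, and ESRRB belongs to a family of orphan nuclear receptors known for control of energy metabolism genes.

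The upstream bases of 5 starts are printed, from genes whose starts were higher in NanogKO:Esrrb:Nanog than in NanogKO. They were picked from those whose letters hold either of 2 short motifs. They stand neither for all starts that rose nor for all with a motif. Each run gives the 250 bases before an annotated start, read 5′ to 3′ on the gene's strand from the RefSeq promoter table (GRCm38.p6), for Slc2a1 at chr4:119108495-119108744 (plus strand), Hk2 at chr6:82774455-82774704 (minus), Pgk1 at chrX:106186850-106187099 (plus), Pgam1 at chr19:41911621-41911870 (plus) and Eno1 at chr4:150236458-150236707 (plus). Capitals mark ACGTG, the core of hypoxia response elements, or AAGGTCA, the core of the sequence that ESRRB and related receptors bind, on either strand.
Slc2a1: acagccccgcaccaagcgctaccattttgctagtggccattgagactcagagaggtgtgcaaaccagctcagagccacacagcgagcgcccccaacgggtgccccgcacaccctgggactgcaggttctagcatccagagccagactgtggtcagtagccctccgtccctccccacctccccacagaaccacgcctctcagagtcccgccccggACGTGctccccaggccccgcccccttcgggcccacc
Hk2: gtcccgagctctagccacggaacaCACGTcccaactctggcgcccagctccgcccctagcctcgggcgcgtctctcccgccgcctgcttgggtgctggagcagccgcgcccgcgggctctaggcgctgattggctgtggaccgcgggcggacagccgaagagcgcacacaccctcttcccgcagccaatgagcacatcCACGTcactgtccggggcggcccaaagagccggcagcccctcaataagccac
Pgk1: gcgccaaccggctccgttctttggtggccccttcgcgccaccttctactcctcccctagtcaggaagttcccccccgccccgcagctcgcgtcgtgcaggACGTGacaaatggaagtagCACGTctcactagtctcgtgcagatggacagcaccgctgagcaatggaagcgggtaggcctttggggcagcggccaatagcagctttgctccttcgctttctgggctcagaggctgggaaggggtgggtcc
Pgam1: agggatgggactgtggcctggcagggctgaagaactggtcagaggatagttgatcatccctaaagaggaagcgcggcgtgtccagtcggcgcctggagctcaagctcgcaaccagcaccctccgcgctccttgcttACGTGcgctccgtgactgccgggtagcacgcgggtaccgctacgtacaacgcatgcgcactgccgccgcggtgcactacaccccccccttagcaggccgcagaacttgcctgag
Eno1: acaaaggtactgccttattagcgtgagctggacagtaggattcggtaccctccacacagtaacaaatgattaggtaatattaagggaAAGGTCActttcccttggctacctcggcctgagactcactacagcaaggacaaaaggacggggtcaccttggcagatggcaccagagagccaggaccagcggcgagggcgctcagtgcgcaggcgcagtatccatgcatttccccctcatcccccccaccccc
The capitals in Slc2a1, Pgam1 and the first run in Pgk1 are ACGTG on the gene's strand, those in Hk2 and the second run in Pgk1 are ACGTG on the opposite strand, and those in Eno1 are AAGGTCA on the gene's strand, beginning 163 bases before the start. Except in Eno1, where the counted region began downstream of the window, each window overlapped a counted region of its gene. The upstream bases of the other 2 annotated Eno1 starts, which overlap that region, held neither motif. Neither did those of Hk1, Gpi1, Pfkp, Pfkfb4, Eno2, Pdha1 and Pdk1, whose starts were also higher in NanogKO:Esrrb:Nanog than in NanogKO. Aldoa, Ldha, Pdhb and Pdk2, whose starts were higher there too, held ACGTG upstream of an annotated start and are not printed.

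Over 300-base windows around protein-coding starts, searched on both strands, AAGGTCA was in 3 of the 53 windows of the 34 genes (5.66%), those of Eno1, Pfkfb1 and Tpi1, and in 4.08% of all 21262 windows. ACGTG was in 23 of the 53 windows (43.4%), from 19 of the genes, and in 20.9% of all windows. CACGTG, the E-box, which contains ACGTG, was in 6 windows (11.3%) against 7.84% of all, and GGGCGG, a GC box, in 26 (49.1%) against 46.2%. The median GC content was 59.0% in the windows of the 34 genes and 56.3% in all. These are matches of letters, several windows belong to 1 gene, and no window was tested for binding.

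Libraries held 35545030 to 58520948 counts, and the counts of single libraries in the 298 regions ran from 1 to 5237 with a median of 210. NanogKO:Esrrb:Nanog replicate 3 stood apart from its group on the second principal component (15.5% of the variance). Some counts below are also given without it, while means and fold changes at single regions include it. Summed over regions at their gene ends, 6 markers of embryonic stem cells had 223 to 249 CPM (counts scaled to library size) in NanogKO, 316 to 359 in NanogKO:Esrrb and 343 to 379 in NanogKO:Esrrb:Nanog. Primitive endoderm markers, of which 4 of 6 had a region and Gata4 and Dab2 had none, summed to 137 to 146, 107 to 131 and 115 to 123 CPM in the same order, and fibroblast markers (5 of 6, without Col3a1) to 72.6 to 80.4, 68.9 to 69.6 and 68.3 to 74.8 CPM. The part of these shifts in the results for the 34 genes was not tested. In such bulk libraries, more cells with an open region and a region more open in each cell cannot be told apart.

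Away from gene ends, the 34 genes had more regions that opened than closed in NanogKO:Esrrb, with most of the rises at 4 of the genes. Relative to NanogKO, 79 of 237 regions were higher and 20 lower by edgeR's quasi-likelihood test with Benjamini-Hochberg adjustment over all regions, called at an adjusted p under 0.05 (41.8% called), where 38.8% of all 110974 such regions near protein-coding genes were called, 21.7% as higher and 17.1% as lower. The median log2 fold change was 0.20 for the 34 genes and 0.01 for all. Of the 79 rises, 49 lay at Slc2a1, Hk1, Hk2 and Pfkp, which were grouped after the values were seen. The other 30 genes had 30 of 147 regions higher (20.4%) and 15 lower, with a median of 0.04. Their share of rises thus did not exceed the 21.7% of all. In NanogKO:Esrrb:Nanog against NanogKO, 95 of the 237 were higher and 33 lower (54.0% called, against 50.9% of all, 26.0% higher and 25.0% lower). The medians there were 0.22 for the 34 genes and -0.01 for all. The other 30 genes had 38 of 147 regions higher (25.9%) and 28 lower in that comparison. These 2 comparisons share the NanogKO libraries. A change of more than 2-fold was called higher at 30 and lower at 5 of the 237 regions in the first comparison. In the second it was called at 42 and 11. By library totals alone in place of TMM scaling, the second comparison gave 80 higher and 43 lower regions, as that scaling shifts the median of all regions by -0.10.

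**Figure D1:**
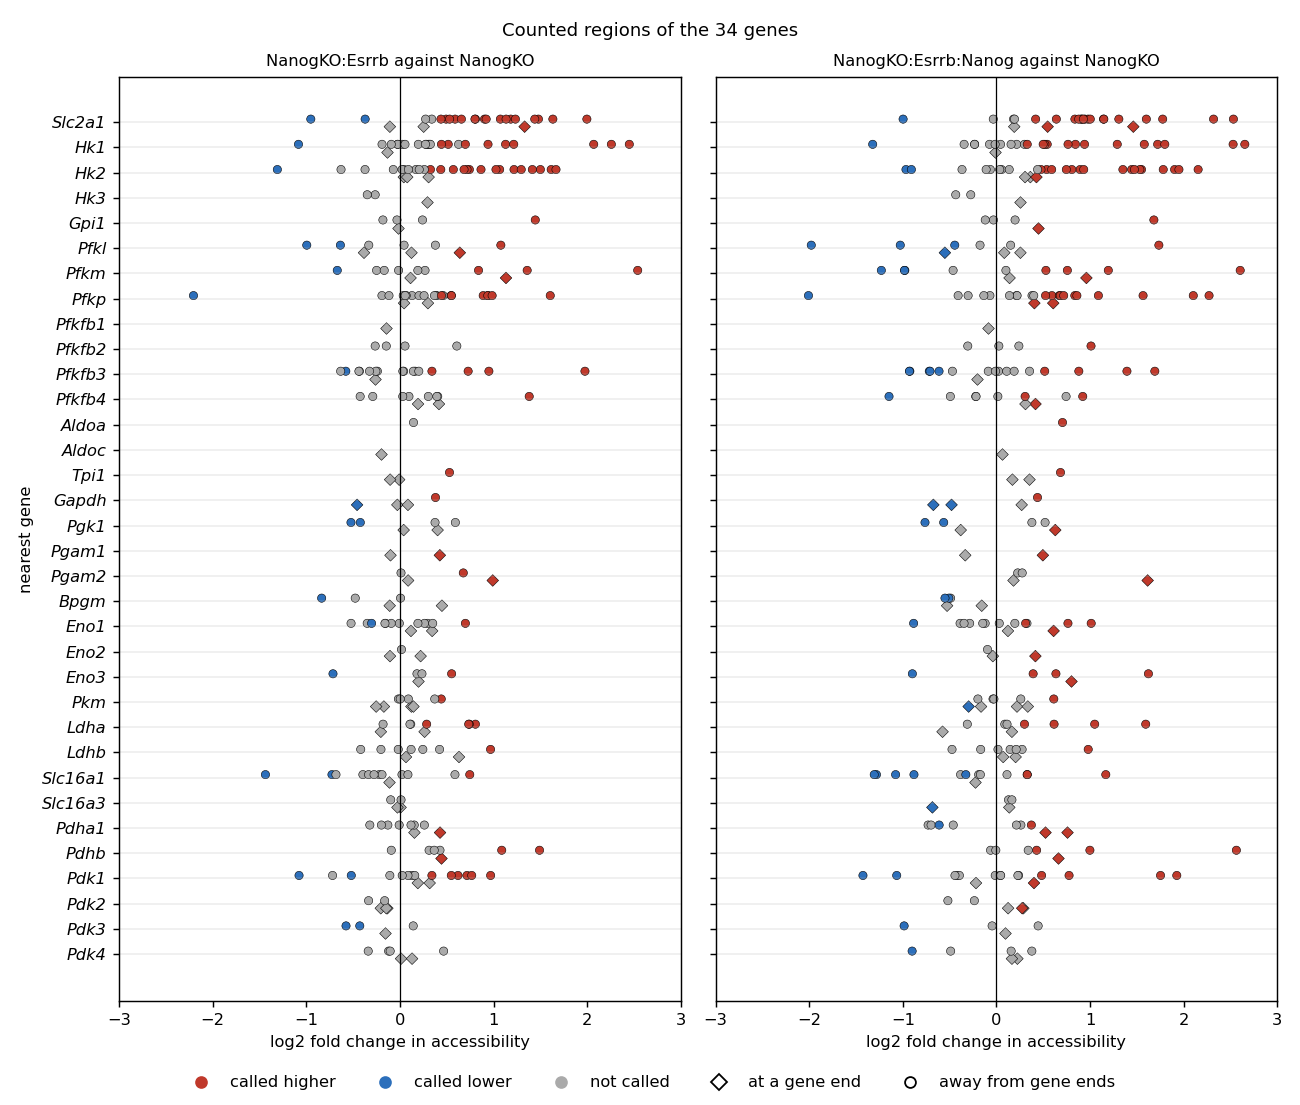
Each point is 1 counted region, placed by its nearest gene (rows, in pathway order) and its log2 fold change (horizontal axis) in NanogKO:Esrrb (left) and in NanogKO:Esrrb:Nanog (right) against NanogKO. Diamonds lie at gene ends and circles away from them, and colour marks the call. Of the 86 points called higher on the left, 50 belong to Slc2a1, Hk1, Hk2 and Pfkp.

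Fewer of the gene ends were called. Of 61 regions there, NanogKO:Esrrb had 7 above and 1 below NanogKO (13.1%, against 22.2% of all 22950 gene-end regions, 8.39% as higher), and with the replicate number as a block 11 were higher and 3 lower. The count of 8 became 13 without NanogKO:Esrrb:Nanog replicate 3, which enters only through the shared spread. With both factors 19 were above and 5 below NanogKO (39.3%, against 34.1% of all, 20.2% as higher), or 17 and 8 by library totals. The medians were 0.09 and 0.21 on the log2 scale for the 34 genes, where all gene-end regions had -0.07 and 0.05.

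Of the 86 regions that rose in NanogKO:Esrrb, 50 lay at 4 genes at the top of the pathway, a grouping made after the values were seen. Slc2a1, Hk1, Hk2 and Pfkp held 99 of the 298 regions, with 50 regions called higher and 5 lower in NanogKO:Esrrb, at a median of 0.44 on the log2 scale. The other 30 genes had 36 higher and 16 lower of 199 regions, with a median of 0.05. In this comparison 37.0% of all regions in the count file were called. In NanogKO:Esrrb:Nanog against NanogKO, where 49.3% of all regions were called, the 4 genes had 62 higher and 5 lower and the others 52 and 33, which turned to 42 and 46 by library totals. Leaving out any 1 library left between 49 and 58 calls at the 4 genes in the first comparison and between 61 and 68 in the second.

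By role, regions away from gene ends at the glucose transporter and hexokinases had the highest share of rises in NanogKO:Esrrb against NanogKO among roles with more than 2 such regions: 41 of 71 were higher and 4 lower. Glucose phosphate isomerase and the phosphofructokinases had 13 higher and 4 lower of 40, and the PFKFB enzymes 5 and 1 of 28. Lower glycolysis had 5 higher and 5 lower of 32, lactate dehydrogenases and monocarboxylate transporters 6 and 2 of 28, pyruvate dehydrogenase 2 and 0 of 13, and the pyruvate dehydrogenase kinases 6 and 4 of 23. The aldolases and triose phosphate isomerase had only 2 such regions, the Aldoa start and a region of Tpi1, of which only the latter was higher. In this comparison 21.7% of all regions away from gene ends were higher and 17.1% lower. The PFKFB enzymes (17.9% higher), lower glycolysis (15.6%), lactate dehydrogenases and monocarboxylate transporters (21.4%) and pyruvate dehydrogenase (15.4%) did not exceed that share of rises. In NanogKO:Esrrb:Nanog against NanogKO the transporter and hexokinases had 46 higher and 4 lower, isomerase and phosphofructokinases 17 and 7, the PFKFB enzymes 7 and 6, and lower glycolysis 8 and 6. Lactate dehydrogenases and monocarboxylate transporters had 7 and 5 there, pyruvate dehydrogenase 4 and 1, the kinases 4 and 4, and the aldolases and triose phosphate isomerase 2 and 0. Of all regions away from gene ends, 26.0% were higher and 25.0% lower in that comparison. The PFKFB enzymes, lower glycolysis, and lactate dehydrogenases with monocarboxylate transporters each had 25.0% higher, near that share. The kinases had 17.4% higher, below it.

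**Figure D2:**
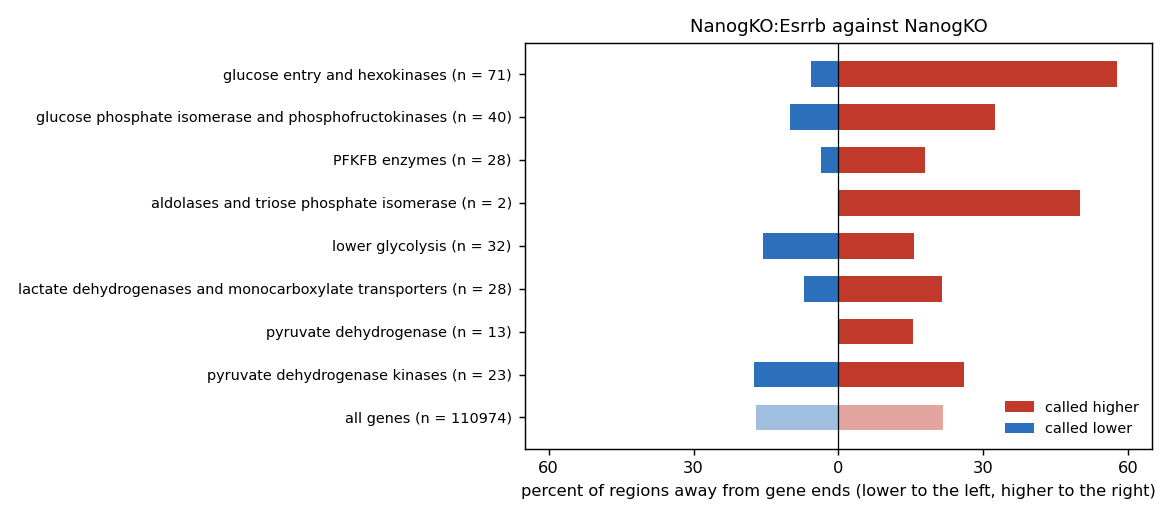
Bars give the percent of regions away from gene ends called higher (red, to the right) or lower (blue, to the left) in NanogKO:Esrrb against NanogKO for each role in the pathway, with the number of regions in brackets and all genes at the bottom in paler colours. The red bar of glucose entry and hexokinases reaches 57.7%, where that of all genes reaches 21.7%.

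Here and below, most regions named away from gene ends are those of smallest p of their gene, or large changes without overlap between groups. Their small p-values and separate groups follow in part from that choice. Slc2a1 encodes GLUT1, the main glucose transporter of many dividing cells. The region of smallest p away from its ends, chr4:119127273-119127603 inside the gene and of low counts in NanogKO, had 1.10, 0.863 and 1.36 CPM in the NanogKO libraries, 4.09, 4.82 and 4.30 in NanogKO:Esrrb, and lastly 6.61, 5.28 and 7.19 in NanogKO:Esrrb:Nanog. No library of either group with Esrrb reached down to the NanogKO range, and the log2 fold changes against NanogKO were 2.00 (SE 0.20, adjusted p = 1e-08) and 2.53 (SE 0.20, adjusted p = 4.8e-11). Of the 21 regions of Slc2a1 away from its ends, 17 were higher and 2 lower in NanogKO:Esrrb. Of all such regions, 21.7% were higher and 17.1% lower. The start region, chr4:119108479-119109436, moved less: it had 42.1, 36.3 and 33.9 CPM in NanogKO, 49.8, 40.5 and 43.5 with Esrrb alone and 67.5, 54.1 and 42.5 with both factors. The groups NanogKO and NanogKO:Esrrb overlapped there (0.25, SE 0.14, adjusted p = 0.15), and NanogKO:Esrrb:Nanog was above NanogKO in all 3 libraries (0.55, SE 0.14, adjusted p = 0.0016), its replicate 3 by the least. A region near the 3′ end, chr4:119135847-119136224, was higher in NanogKO:Esrrb (4.66 ± 0.755 CPM, SD, n = 3) than in NanogKO (2.67 ± 0.344; 0.80, SE 0.19, adjusted p = 0.0016), and stood at 3.00 ± 0.719 in NanogKO:Esrrb:Nanog.

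Hexokinases phosphorylate glucose so that it stays in the cell. At Hk1, the broadly expressed form, chr10:62313849-62314754 inside the gene showed 5.29, 6.34 and 6.93 CPM in NanogKO and 26.4, 31.1 and 20.6 in NanogKO:Esrrb, while NanogKO:Esrrb:Nanog had 43.2, 36.4 and 27.8. The NanogKO libraries lay below all others, with log2 fold changes of 2.07 (SE 0.16, adjusted p = 1.6e-10) and 2.53 (SE 0.16, adjusted p = 1.6e-12). Of 23 regions away from the ends of Hk1, 9 were higher and 1 lower in NanogKO:Esrrb, against 21.7% and 17.1% of all such regions. Its most accessible start, chr10:62339860-62340866, which lies inside the longest span, averaged 33.3, 34.6 and 41.9 CPM in the 3 groups. The 0.33 rise there in NanogKO:Esrrb:Nanog (SE 0.11, adjusted p = 0.017) was lost without NanogKO replicate 2 (adjusted p = 0.092) or NanogKO:Esrrb:Nanog replicate 2 (adjusted p = 0.079).

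Hk2 encodes the inducible hexokinase of growing cells. The region of smallest p, chr6:82703346-82704220, 20805 bases beyond the 3′ end, had 7.41, 7.79 and 8.96 CPM in NanogKO, 25.3, 27.6 and 21.3 in NanogKO:Esrrb, and lastly 31.3, 24.8 and 34.3 in NanogKO:Esrrb:Nanog. Both groups with Esrrb stood above NanogKO without overlap and overlapped each other, with log2 fold changes of 1.62 (SE 0.14, adjusted p = 6.6e-10) and 1.90 (SE 0.14, adjusted p = 1.1e-11) over NanogKO. A second region of Hk2, chr6:82821668-82822236, was found 47214 bases upstream, with 4.39, 4.70 and 5.19 CPM in NanogKO, 17.0, 14.3 and 14.1 with Esrrb alone and 12.2, 13.3 and 14.2 with both factors (1.67, SE 0.13, adjusted p = 2.8e-10, and 1.47, SE 0.13, adjusted p = 7.5e-10, over NanogKO). The Hk2 start, chr6:82774247-82774948, whose upstream letters are printed above, averaged 39.5, 41.7 and 53.2 CPM and passed the test only in NanogKO:Esrrb:Nanog against each other group, at 0.43 (SE 0.12, adjusted p = 0.0036) over NanogKO and 0.35 (SE 0.12, adjusted p = 0.03) over NanogKO:Esrrb. The second of these calls was lost on leaving out either of replicates 1 and 2 of NanogKO:Esrrb:Nanog (adjusted p = 0.14 and 0.11) or replicate 2 or 3 of NanogKO:Esrrb (adjusted p = 0.098 and 0.09), by library totals (adjusted p = 0.074) and with only these 2 groups in the fit (adjusted p = 0.076). Hk3, the hexokinase best known from blood cells, had 3 regions, none of them called in any of the 3 comparisons.

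**Figure D3:**
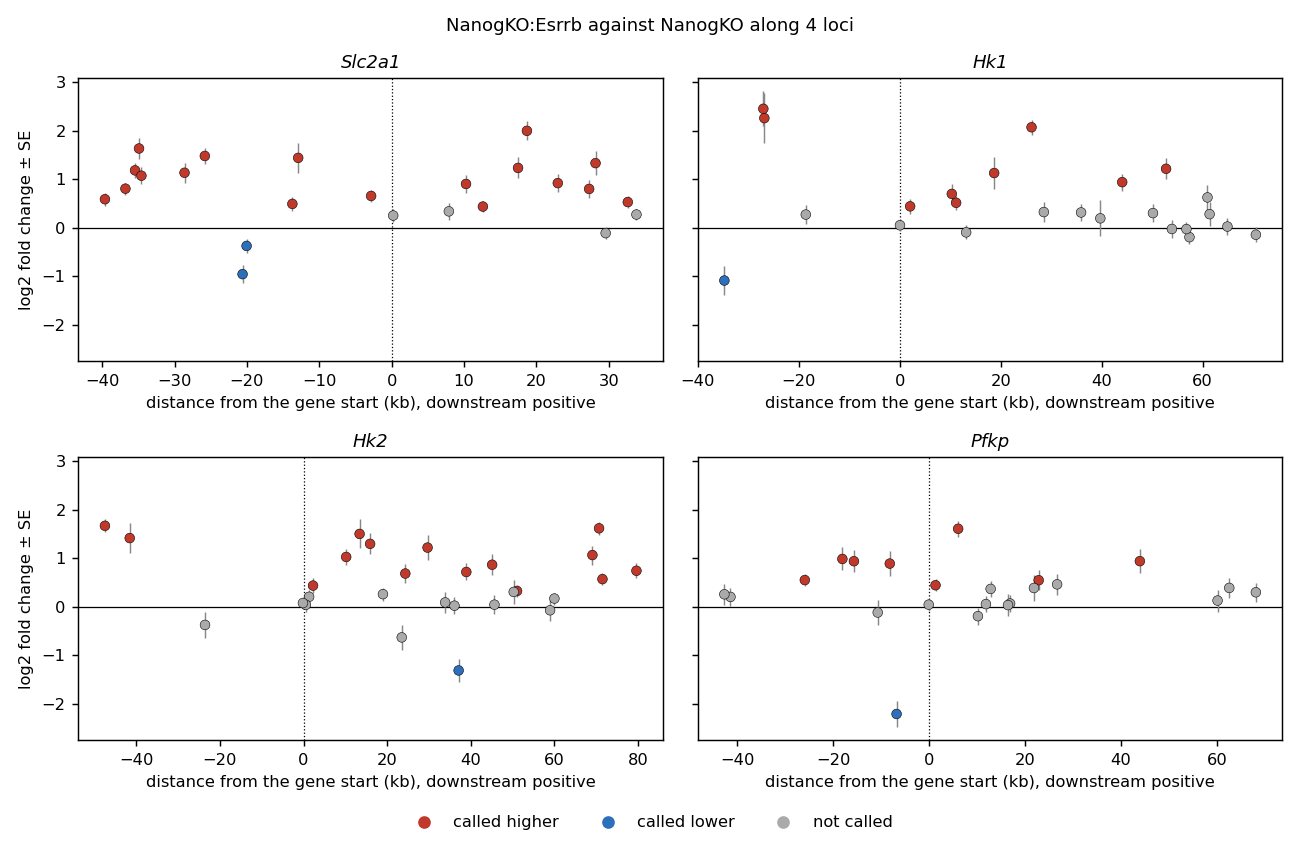
Each point is a counted region of Slc2a1, Hk1, Hk2 or Pfkp, with its distance in kb from the most accessible annotated start on the horizontal axis (downstream positive, dotted line at 0) and its log2 fold change in NanogKO:Esrrb against NanogKO on the vertical axis, with the SE as a bar. Red points (called higher) lie on both sides of each start, and the points over the dotted lines are grey (not called).

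Regions farther out were taken as a comparison for these 4 genes. Regions 50 kb to 1 Mb from the gene had median log2 fold changes in NanogKO:Esrrb of 0.16 around Slc2a1, 0.14 around Hk1, -0.01 around Hk2 and 0.14 around Pfkp. The medians of the genes' own regions were 0.80, 0.31, 0.38 and 0.37 in the same order. These are descriptions, and the differences were not tested. The 4 genes were grouped after their values were seen, and that choice alone favours higher medians in their own regions.

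Gpi1 encodes the isomerase that makes fructose 6-phosphate. A region of low counts inside it, chr7:34218233-34218603, had 1.10, 1.01 and 0.973 CPM in NanogKO and 2.31, 3.90 and 2.16 in NanogKO:Esrrb, while NanogKO:Esrrb:Nanog had 3.13, 3.40 and 3.35, so that NanogKO lay apart from both (1.45, SE 0.23, adjusted p = 1.5e-05, and 1.68, SE 0.23, adjusted p = 8.9e-07). Its start averaged 23.6, 23.2 and 32.1 CPM, and rose in NanogKO:Esrrb:Nanog over NanogKO by 0.44 (SE 0.13, adjusted p = 0.0056).

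Phosphofructokinase has platelet (Pfkp), liver (Pfkl) and muscle (Pfkm) forms, and stem cells can use all of them. At Pfkp, chr13:6642464-6642980 inside the gene showed 6.66, 4.28 and 9.12 CPM in NanogKO, 19.6, 20.9 and 20.4 in NanogKO:Esrrb, and lastly 34.9, 31.3 and 30.4 in NanogKO:Esrrb:Nanog. The 3 groups did not overlap, and the log2 fold changes were 1.61 (SE 0.16, adjusted p = 2e-08) and 2.27 (SE 0.17, adjusted p = 1.8e-11) over NanogKO and 0.67 (SE 0.16, adjusted p = 0.0031) between the groups with Esrrb. Farther out, chr13:6673710-6675642 had 12.7 ± 1.20 CPM in NanogKO, 18.6 ± 2.28 in NanogKO:Esrrb and 11.6 ± 1.52 in NanogKO:Esrrb:Nanog (SD, n = 3). It rose by 0.55 (SE 0.13, adjusted p = 0.0013) with Esrrb and was 0.68 lower again (log2 fold change -0.68, SE 0.13, adjusted p = 0.00049) in NanogKO:Esrrb:Nanog than in NanogKO:Esrrb. Its start region of highest mean, chr13:6647028-6647846, which lies 925 bases from the nearest annotated start, rose in both groups, by 0.44 (SE 0.12, adjusted p = 0.0042) and 0.68 (SE 0.12, adjusted p = 2.9e-05). The region over the start itself, chr13:6648339-6649375, had 0.04 (SE 0.12, adjusted p = 0.81) with Esrrb and rose by 0.41 (SE 0.12, adjusted p = 0.0083) with both factors, a call lost without NanogKO:Esrrb:Nanog replicate 2 (adjusted p = 0.065). The lowest point in the plot of the 4 loci, chr13:6655405-6655703, singled out after its values were seen, fell by 2.21 with Esrrb (SE 0.27, adjusted p = 3.4e-07).

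Pfkl had neighbouring regions that moved in opposite directions. At chr10:78016797-78017155, 6990 bases upstream of the gene, the libraries had 7.24, 8.34 and 8.07 CPM in NanogKO, 4.07, 3.42 and 4.38 with Esrrb alone and 1.45, 1.47 and 2.96 with both factors. Each group lay below the one before without overlap, with adjusted p = 0.00019 for the first step, and log2 fold changes of -1.98 (SE 0.21, adjusted p = 1.1e-08) between NanogKO and NanogKO:Esrrb:Nanog and -0.98 (SE 0.21, adjusted p = 0.0015) between the groups with Esrrb. At chr10:78013250-78013429, 3443 bases upstream, they had 1.59, 1.62 and 2.49, then 3.82, 4.50 and 3.72, then 6.78, 7.22 and 5.10 CPM, a rise of 1.08 (SE 0.20, adjusted p = 8e-05) and 1.74 (SE 0.19, adjusted p = 3.4e-08) over NanogKO. The Pfkl start averaged 55.2, 60.1 and 66.0 CPM and did not pass the test in any comparison. At Pfkm, a region of low counts inside the gene, chr15:98119415-98119653, went from 0.439, 0.312 and 0.487 CPM in NanogKO to 2.25, 3.22 and 1.70 with Esrrb alone and 2.03, 3.11 and 2.42 with both factors (2.54, SE 0.28, adjusted p = 8.4e-08, and 2.60, SE 0.29, adjusted p = 2.5e-08). A region at the 3′ end of Pfkm, chr15:98131755-98132264, was higher by 1.13 (SE 0.17, adjusted p = 6.9e-06) and 0.96 (SE 0.17, adjusted p = 4.1e-05), while chr15:98125254-98125625 was lower in NanogKO:Esrrb:Nanog, at -0.98 (SE 0.21, adjusted p = 0.00039) against NanogKO and -0.81 (SE 0.21, adjusted p = 0.0068) against NanogKO:Esrrb.

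The PFKFB enzymes make and remove fructose 2,6-bisphosphate, the activator of phosphofructokinase. Pfkfb3, the form with the strongest kinase activity, had 16 regions away from its ends, of which 4 were higher and 1 lower in NanogKO:Esrrb and 4 were higher and 5 lower in NanogKO:Esrrb:Nanog, both against NanogKO. The latter counts are near the 26.0% higher and 25.0% lower of all such regions. For the former, all such regions had 21.7% higher and 17.1% lower. Its region chr2:11503194-11503343 had 3.10, 3.38 and 3.22, then 5.31, 5.96 and 4.82, then 10.0, 9.80 and 5.83 CPM in the 3 groups (0.73, SE 0.18, adjusted p = 0.0021, and 1.39, SE 0.18, adjusted p = 3.3e-07). At chr2:11482845-11483612 it fell, from 7.28 ± 0.422 CPM to 4.87 ± 1.00 and 4.43 ± 0.716 (SD, n = 3), log2 fold changes of -0.58 (SE 0.16, adjusted p = 0.0062) and -0.72 (SE 0.17, adjusted p = 0.00075), and the first call was lost without NanogKO:Esrrb replicate 1 (adjusted p = 0.054). Pfkfb4 had a region of low counts, chr9:108998786-108998968, that was higher in NanogKO:Esrrb (1.38, SE 0.30, adjusted p = 0.00073). At Pfkfb2, a form known from heart, the start rose between the groups with Esrrb (0.39, SE 0.13, adjusted p = 0.031) in a call lost in 6 of the alternative fits, 4 of them without 1 library. Pfkfb1 had a single region, shared with Apex2, with no call.

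Aldolases split fructose bisphosphate into trioses. Aldoa, the aldolase of most tissues, had a single counted region, at its start (chr7:126798924-126799978), with 45.8, 38.2 and 40.7 CPM in NanogKO and 51.0, 43.9 and 42.7 in NanogKO:Esrrb, while NanogKO:Esrrb:Nanog had 80.7, 73.5 and 48.3. NanogKO and NanogKO:Esrrb overlapped, and replicate 3 of NanogKO:Esrrb:Nanog lay within the range of NanogKO:Esrrb. The log2 fold changes were 0.14 (SE 0.14, adjusted p = 0.46) and 0.70 (SE 0.14, adjusted p = 0.00018) over NanogKO. Aldoc, best known from brain, had 1 region with no call. Tpi1, which interconverts the trioses, had a start at 14.8, 13.7 and 16.7 CPM with no call, and an inner region, chr6:124812360-124812481, that was higher in NanogKO:Esrrb:Nanog by 0.67 (SE 0.20, adjusted p = 0.0077).

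Lower glycolysis yields the ATP. Gapdh, the dehydrogenase of the first step after the trioses, had the densest start of the 34 genes, at 83.3 CPM per kb over all libraries, and it averaged 35.8, 37.9 and 43.1 CPM without a call. A smaller region beside it, chr6:125164852-125165240, averaged 15.3, 19.8 and 20.6 CPM and rose in NanogKO:Esrrb:Nanog by 0.43 (SE 0.12, adjusted p = 0.0051). Its rise in NanogKO:Esrrb (0.37, SE 0.12, adjusted p = 0.019) was lost without NanogKO replicate 2 or 3 or NanogKO:Esrrb replicate 2 (adjusted p = 0.076, 0.11 and 0.071). The region over the 5′ end of the longest Gapdh span, chr6:125166354-125167080, fell from 27.7 ± 3.77 CPM to 20.2 ± 0.593 and 17.3 ± 1.47 (SD, n = 3), with log2 fold changes of -0.46 (SE 0.12, adjusted p = 0.0028) and -0.67 (SE 0.12, adjusted p = 3.1e-05). A region near the 3′ end, chr6:125162074-125162251, was lower in NanogKO:Esrrb:Nanog than in NanogKO (-0.48, SE 0.16, adjusted p = 0.017), a call lost without NanogKO replicate 1 or NanogKO:Esrrb:Nanog replicate 2 (adjusted p = 0.13 each). Both regions were chosen for naming with their values known, and the counted regions of Gapdh thus moved in both directions. The Pgk1 start, chrX:106186692-106187431, had 16.0, 18.5 and 20.1 CPM in NanogKO, 22.1, 15.6 and 18.5 in NanogKO:Esrrb, and lastly 31.9, 33.1 and 19.8 in NanogKO:Esrrb:Nanog. Replicates 1 and 2 of the last group stood above all other libraries and replicate 3 among them, and Pgk1, the first kinase that makes ATP here, had a log2 fold change of 0.04 (SE 0.15, adjusted p = 0.87) with Esrrb and 0.63 (SE 0.15, adjusted p = 0.0014) with both factors. Upstream of it, chrX:106176286-106176887 fell from 12.3, 10.9 and 11.6 CPM to 8.19, 7.49 and 8.54 and to 5.89, 7.25 and 7.38 (-0.52, SE 0.13, adjusted p = 0.0025, and -0.76, SE 0.13, adjusted p = 3.2e-05). All 3323 regions of the X chromosome had a median of -0.12 in both comparisons, and the part of this in the change was not tested.

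The mutases move the phosphate within phosphoglycerate. At Pgam1 and Pgam2, 1 of 2 gene-end regions each was higher in both comparisons with NanogKO. Of all gene-end regions, 8.39% were higher in NanogKO:Esrrb and 20.2% in NanogKO:Esrrb:Nanog. The 2 gene-end regions of Bpgm had no call there, and 1 was lower in NanogKO:Esrrb:Nanog than in NanogKO:Esrrb, where 4.61% of all were. Pgam1, the common form, had a start region, chr19:41911553-41913333, with 35.0, 32.4 and 32.6 CPM in NanogKO, 48.0, 44.6 and 41.6 with Esrrb alone and 55.0, 47.6 and 38.4 with both factors. All libraries with Esrrb exceeded all NanogKO libraries, by 0.43 (SE 0.12, adjusted p = 0.0067) and 0.50 (SE 0.12, adjusted p = 0.0013). Pgam2, the muscle form, rose at its 3′ end, chr11:5801969-5802484, from 4.63, 3.49 and 4.80 CPM to 8.66, 8.22 and 8.75 and to 12.0, 13.2 and 14.4. The 3 groups were apart from each other, at 0.99 (SE 0.14, adjusted p = 4e-06) and 1.62 (SE 0.14, adjusted p = 5.8e-10) over NanogKO and 0.62 (SE 0.14, adjusted p = 0.0018) between the groups with Esrrb. The Pgam2 start averaged 7.96, 8.44 and 9.02 CPM with no call. Bpgm, which makes 2,3-bisphosphoglycerate, was lower at chr6:34548422-34549298, 43286 bases from the gene, with 8.59 ± 0.594, 4.80 ± 0.816 and 5.85 ± 0.785 CPM (SD, n = 3) in the 3 groups (-0.84, SE 0.15, adjusted p = 8.5e-05, and -0.55, SE 0.15, adjusted p = 0.0039).

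Enolase makes phosphoenolpyruvate. The start of Eno1, the common form, had 29.8, 24.4 and 24.0 CPM in NanogKO and 38.4, 31.1 and 29.7 in NanogKO:Esrrb, while NanogKO:Esrrb:Nanog had 48.4, 42.5 and 28.7. The ranges of all 3 groups overlapped, and only the step from NanogKO to NanogKO:Esrrb:Nanog passed the test (0.61, SE 0.15, adjusted p = 0.0012, against 0.34, SE 0.15, adjusted p = 0.068, with Esrrb). The Eno1 run printed above lies outside this region. Elsewhere inside the gene, chr4:150241873-150242083 had 3.34, 3.34 and 3.67 CPM in NanogKO and 7.55, 6.16 and 7.14 in NanogKO:Esrrb:Nanog, a rise of 1.01 (SE 0.16, adjusted p = 8.4e-06). Eno3, the muscle form, was the one gene whose most accessible start was called lower: chr11:70656222-70657061, which overlaps Pfn1 too, had 14.1, 14.0 and 11.5 CPM in NanogKO, 7.29, 9.58 and 7.18 in NanogKO:Esrrb, and lastly 7.34, 7.80 and 6.16 in NanogKO:Esrrb:Nanog (-0.72, SE 0.14, adjusted p = 0.00024, and -0.90, SE 0.14, adjusted p = 9.9e-06). Further into Eno3, chr11:70659048-70659168 averaged 1.86, 2.74 and 5.79 CPM and rose in NanogKO:Esrrb:Nanog by 1.62 (SE 0.19, adjusted p = 7.1e-08). The start of Eno2, the neuronal form, rose by 0.42 (SE 0.12, adjusted p = 0.0046) in the same group. Pkm, the pyruvate kinase of stem cells, had a start at 39.1, 42.5 and 45.5 CPM with no call, and a region 2916 bases upstream, chr9:59653476-59653660, that rose in NanogKO:Esrrb:Nanog by 0.61 (SE 0.16, adjusted p = 0.0025).

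Lactate dehydrogenase interconverts pyruvate and lactate. At Ldha, chr7:46838801-46839684, 2590 bases upstream of the annotated span, had 14.5, 15.3 and 16.3 CPM in NanogKO, 24.2, 29.3 and 23.5 with Esrrb alone and 29.6, 35.6 and 30.4 with both factors. The groups were apart, with rises over NanogKO of 0.74 (SE 0.12, adjusted p = 1.7e-05) and 1.05 (SE 0.12, adjusted p = 4.4e-08). Its main start, chr7:46845385-46846589, rose by 0.28 (SE 0.11, adjusted p = 0.049) and 0.30 (SE 0.11, adjusted p = 0.03). The first of these calls was lost without any 1 of NanogKO replicates 1 to 3, NanogKO:Esrrb replicates 1 and 3 or NanogKO:Esrrb:Nanog replicate 2 (adjusted p from 0.056 to 0.2) and with RLE scaling (adjusted p = 0.058). The second was lost by library totals (adjusted p = 0.09) and without NanogKO replicate 2 or 3 or NanogKO:Esrrb:Nanog replicate 1 or 2 (adjusted p from 0.074 to 0.12). The Ldhb start, chr6:142507196-142508340, had 44.2, 43.2 and 44.7, then 46.0, 47.0 and 45.1, then 49.1, 43.7 and 46.0 CPM, differences of 0.06 (SE 0.10, adjusted p = 0.67) and 0.07 (SE 0.10, adjusted p = 0.59) that did not pass the test. Inside Ldhb, chr6:142503740-142503856 rose from 2.43 ± 0.0456 CPM to 4.75 ± 0.207 and 4.80 ± 0.901 (SD, n = 3), by 0.97 (SE 0.17, adjusted p = 6.1e-05) and 0.98 (SE 0.17, adjusted p = 3.3e-05).

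The monocarboxylate transporters carry lactate and pyruvate across the cell membrane. At Slc16a1 (MCT1), chr3:104643820-104644258 inside the gene showed 15.8, 14.5 and 12.5 CPM in NanogKO and 7.47, 9.81 and 8.51 in NanogKO:Esrrb, while NanogKO:Esrrb:Nanog had 6.84, 5.72 and 7.59. Both groups with Esrrb lay below NanogKO and overlapped each other (-0.73, SE 0.14, adjusted p = 0.00016, and -1.08, SE 0.14, adjusted p = 5.1e-07). Of the 12 regions of Slc16a1 away from its ends, 2 were higher and 5 lower in NanogKO:Esrrb:Nanog than in NanogKO. All such regions had 26.0% higher and 25.0% lower. Its start averaged 65.5, 60.2 and 56.0 CPM with no call. Slc16a3 (MCT4), the exporter of highly glycolytic cells, had 4 regions, of which 1 at its 3′ end, chr11:120959000-120959440, shared with Csnk1d, was lower in NanogKO:Esrrb:Nanog than in NanogKO (-0.68, SE 0.19, adjusted p = 0.0035).

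**Figure D4:**
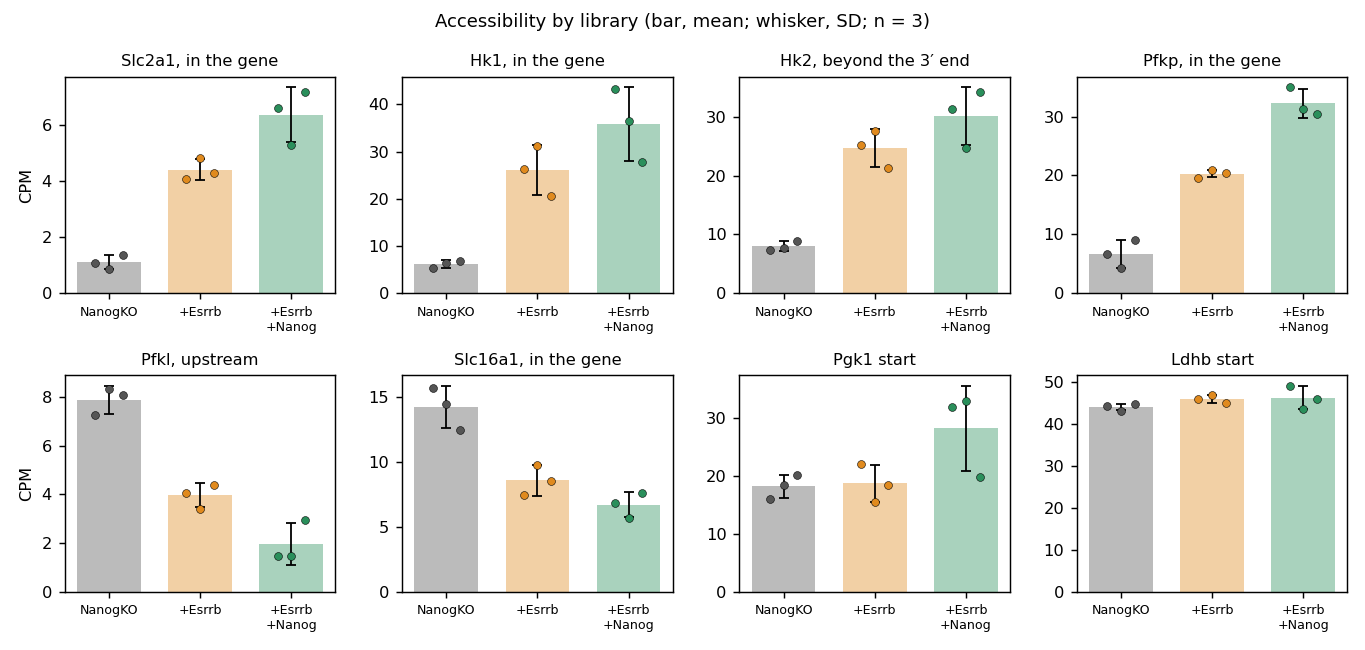
Bars give the mean CPM of 8 regions in the 3 groups, whiskers the SD over 3 libraries and points the libraries, each panel with its own scale from 0. The regions of Slc2a1, Hk1, Hk2 and Pfkp rise with Esrrb, those of Pfkl and Slc16a1 fall, the Pgk1 start is high in 2 libraries of NanogKO:Esrrb:Nanog, and the Ldhb start lies between 43.2 and 49.1 CPM throughout.

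All 3 gene-end regions of the 2 pyruvate dehydrogenase genes were higher in NanogKO:Esrrb:Nanog than in NanogKO, where 20.2% of all gene-end regions were higher. Of their 13 regions away from the ends, 4 were higher and 1 lower, against 26.0% and 25.0% of all such regions. The start of Pdhb, the beta subunit of its E1 enzyme, chr14:8172669-8173637, had 61.2, 56.8 and 61.5 CPM in NanogKO, 87.3, 72.0 and 83.6 in NanogKO:Esrrb, and lastly 109, 91.8 and 82.3 in NanogKO:Esrrb:Nanog. NanogKO lay below both other groups, which overlapped (0.44, SE 0.12, adjusted p = 0.0042, and 0.66, SE 0.12, adjusted p = 4e-05). A region of low counts 8661 bases upstream of Pdhb, chr14:8181964-8182214, went from 0.512, 0.606 and 1.01 CPM to 2.15, 2.11 and 1.79 and to 5.43, 4.22 and 3.10, with log2 fold changes over NanogKO of 1.49 (SE 0.26, adjusted p = 4.8e-05) and 2.56 (SE 0.25, adjusted p = 4e-09). The start of Pdha1, the X-linked alpha subunit, averaged 13.8, 15.4 and 19.9 CPM and rose by 0.52 (SE 0.12, adjusted p = 0.00088) with both factors.

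The pyruvate dehydrogenase kinases, which switch the complex off, showed both directions. At Pdk1, chr2:71916468-71916631, a region of low counts, had 0.756, 0.863 and 1.01, then 1.75, 1.44 and 1.32, then 2.92, 3.84 and 3.34 CPM, with each group apart from the others. The rises over NanogKO were 0.77 (SE 0.23, adjusted p = 0.0098), lost without NanogKO:Esrrb replicate 1 (adjusted p = 0.06), and 1.93 (SE 0.22, adjusted p = 5.8e-08). The Pdk2 start averaged 27.8, 25.3 and 33.7 CPM and was higher in NanogKO:Esrrb:Nanog than in NanogKO:Esrrb by 0.41 (SE 0.11, adjusted p = 0.01). Near Pdk3, on the X chromosome, chrX:93856425-93857339 fell from 5.61 ± 0.430 to 2.82 ± 0.209 CPM (SD, n = 3) with both factors (-0.99, SE 0.16, adjusted p = 1.1e-05), and near Pdk4 chr6:5525336-5525888 fell from 5.44 ± 0.413 to 2.88 ± 0.604 (-0.90, SE 0.17, adjusted p = 8.7e-05).

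The starts were then set side by side, taking for each gene the region of highest mean within 1 kb of an annotated start. In NanogKO:Esrrb against NanogKO, 4 of 34 starts were higher (Pfkp, Pgam1, Pdhb and Ldha) and 1 lower (Eno3), where 19.5% of all start regions were called, 6.07% as higher and 13.5% as lower, and with the replicate block 8 were higher and 1 lower. In NanogKO:Esrrb:Nanog against NanogKO, 16 were higher and 1 lower, where 31.9% of all start regions were called, 19.9% as higher. The 16 were Slc2a1, Hk1, Hk2, Gpi1, Pfkp, Pfkfb4, Aldoa, Pgk1, Pgam1, Eno1, Eno2, Ldha, Pdha1, Pdhb, Pdk1 and Pdk2. Over all 34 starts the log2 fold changes lay between -0.90 and 0.70, so no start passed 2-fold, and the median was 0.26, where all start regions had 0.07. Of the 17 calls, 12 held in every alternative fit. The others were Ldha and Hk1, given above, Pdk1 (lost without NanogKO replicate 2 or 3 or NanogKO:Esrrb:Nanog replicate 1, adjusted p = 0.1, 0.085 and 0.24), Pfkfb4 (lost without the same 3 libraries, adjusted p = 0.1, 0.078 and 0.11, and by library totals, adjusted p = 0.075) and Pdk2 (lost in 10 fits, adjusted p from 0.052 to 0.16).

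NanogKO:Esrrb:Nanog replicate 3 was the lowest of its group at 30 of the 34 starts, with a median of 28.0 CPM where replicates 1 and 2 had 36.1 and 34.7. The NanogKO libraries had medians of 26.8 to 28.0 CPM and the NanogKO:Esrrb libraries of 26.4 to 28.9. Without that replicate 20 starts were higher than in NanogKO and 1 lower. Per kb of region, starts ran from 9.56 CPM at Hk3, 11.2 at Eno3 and 11.4 at Pgam2 up to 63.9 at Hk2, 80.9 at Pdhb and 83.3 at Gapdh.

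**Figure D5:**
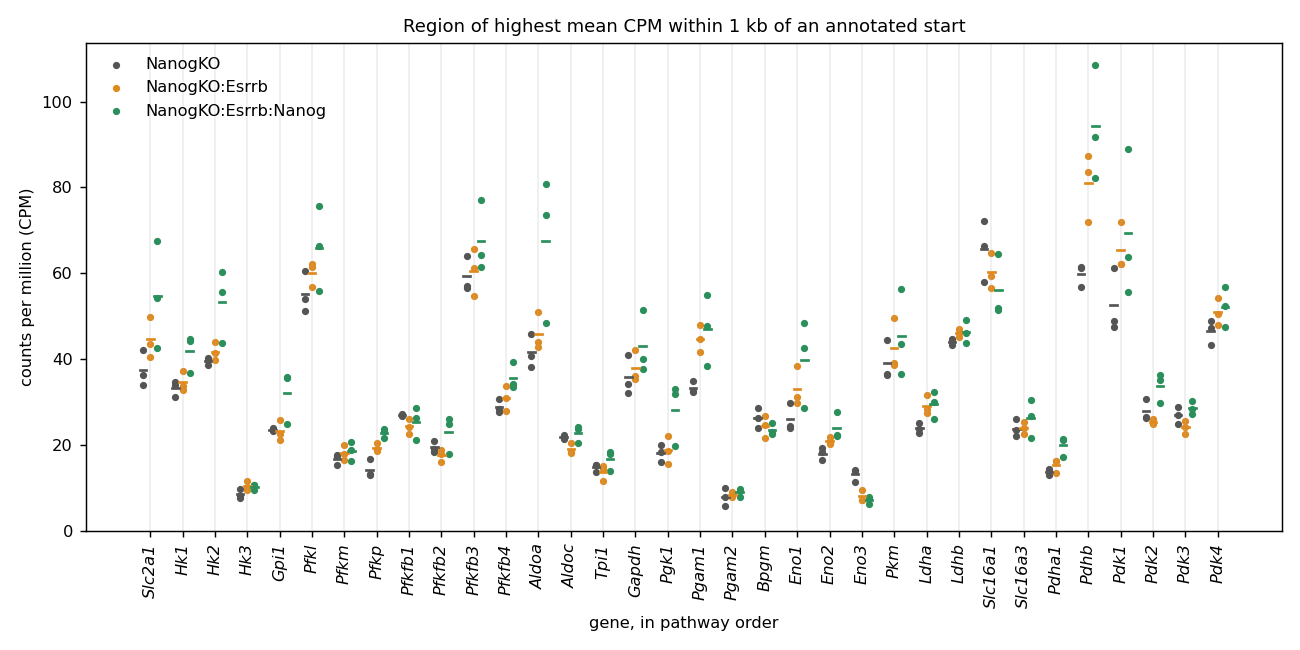
Points are the CPM of single libraries at the most accessible start region of each gene, in pathway order, and short bars are the means of 3 libraries per group. The green points of NanogKO:Esrrb:Nanog have their widest ranges at Pdk1 (55.6 to 88.8 CPM) and Aldoa (48.3 to 80.7 CPM), and Eno3 is the one start called lower in each group with Esrrb.

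Between the groups with Esrrb, which differ by Nanog in their names, fewer regions were called and the split depended on the scaling. Of all 298 regions 42 were higher and 20 lower (20.8%, against 24.1% of all regions within 50 kb of a protein-coding gene). Away from gene ends 34 of 237 were higher and 16 lower in NanogKO:Esrrb:Nanog (21.1%, against 24.9% of all), or 19 and 22 by library totals, and at gene ends 8 and 4 of 61 (19.7%, against 20.1% of all, 4.61% as lower), or 5 and 6. The count at gene ends was 4 without NanogKO:Esrrb:Nanog replicate 1 or 2, 6 without NanogKO:Esrrb replicate 2 and 26 without NanogKO:Esrrb:Nanog replicate 3. Away from them it was 28 and 30 without NanogKO:Esrrb:Nanog replicate 1 and 2, and 30 and 29 without NanogKO:Esrrb replicate 1 and 3. The 4 rises of more than 2-fold were at Pfkp (chr13:6664213-6664671, 1.17, SE 0.21, adjusted p = 0.00025), Pdk1 (1.16, SE 0.21, adjusted p = 0.0003), Eno3 (1.07, SE 0.18, adjusted p = 0.00016) and Pdhb (1.07, SE 0.23, adjusted p = 0.0013), the last 3 at the regions given above. At starts 7 of 34 genes were higher and the lowest log2 fold change was -0.18, where 20.6% of all start regions were called, 17.1% as higher and 3.47% as lower, and the count was 2 without NanogKO:Esrrb:Nanog replicate 2, 3 without its replicate 1, 4 without NanogKO:Esrrb replicate 2 and 14 without NanogKO:Esrrb:Nanog replicate 3.

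Other genes of these pathways were counted in the same way in NanogKO:Esrrb against NanogKO. Other glucose transporters had 11 regions higher and 12 lower of 73, other glycolytic isoenzymes 7 and 8 of 59, and the pyruvate carrier, pyruvate carboxylase and rest of the pyruvate dehydrogenase complex 8 and 8 of 37. Gluconeogenesis and fructose bisphosphate control had 12 and 6 of 38, the pentose phosphate pathway 15 and 11 of 69, and other monocarboxylate transport 2 and 9 of 25. Between 25.4% and 47.4% of a list was called, where 36.0% of all regions within 50 kb of a protein-coding gene were called, 19.4% as higher and 16.5% as lower. In NanogKO:Esrrb:Nanog against NanogKO the counts were 17 higher and 10 lower, 10 and 15, 10 and 3, 11 and 9, 21 and 13, and 4 and 5 in the same order, or 35.1% to 52.6% of a list, where 48.0% of all such regions were called, 25.0% as higher and 23.1% as lower. The lists thus lay on both sides of the share of all regions in each comparison. Tigar, which lowers fructose 2,6-bisphosphate, had a region inside the gene, chr6:127103519-127104097, at 1.71 ± 0.257, 8.45 ± 1.60 and 15.6 ± 3.14 CPM (SD, n = 3) in the 3 groups, a rise of 2.30 (SE 0.18, adjusted p = 1.9e-10) and 3.19 (SE 0.18, adjusted p = 2.2e-13) over NanogKO. Slc2a12, another glucose transporter, had a region, chr10:22698526-22698943, that fell from 17.4 ± 2.45 to 4.85 ± 0.322 and 4.46 ± 0.347 CPM (-1.84, SE 0.14, adjusted p = 1.1e-10, and -1.97, SE 0.14, adjusted p = 1.3e-11).

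The authors' deposited peak lists, 1 per group, were set against the same 298 regions. A peak of all 3 lists overlapped 49 of the 61 gene-end regions (80.3%, against 80.1% of all gene-end regions) and 135 of the 237 others (57.0%, against 52.2% of all such regions near protein-coding genes). Among the 237, 26 had a peak in both lists with Esrrb and none in NanogKO (11.0%, against 11.3% of all), 21 only in NanogKO:Esrrb (8.86%, against 9.18%), 21 only in NanogKO:Esrrb:Nanog (8.86%, against 6.46%) and 14 only in NanogKO (5.91%, against 10.7%). These shares were not tested. These lists have no replicates, and a missing peak does not show closed chromatin. All peak names in the list of NanogKO:Esrrb:Nanog carry the number of a NanogKO:Esrrb library, so its group is uncertain.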

How the data were processed

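ATAC-seq reads in 157497 regions were given by the authors as a deposited table of raw counts, 1 column for each of the 9 libraries, with no normalization. The deposited peak lists give 1 score per peak, set by the authors' peak caller, which was used only to recognise the lists; overlap of at least 1 base was counted. The submitters' processing notes list Bowtie2 and MACS2 2.2.0, SAMtools 1.4.1 and bedtools 2.26.0, cutadapt and bcl2fastq 2.19.1, and mm10, with no role stated. The counter, the transposase shift, the handling of duplicates and the mapping filter are not given in the sources used here. The last bears on genes with near-identical copies elsewhere, such as Gapdh, Eno1, Pgam1, Aldoa, Ldha, Pkm and Tpi1.

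Regions were joined to genes through RefSeq spans of GRCm38. One model of all 9 libraries (edgeR 4.0.16 in R 4.3.3, TMM scaling, filterByExpr, quasi-likelihood F test with 6 residual degrees of freedom) was fitted to 157439 regions, with Benjamini-Hochberg adjustment over all of them and calls at 0.05. CPM use TMM-scaled library totals, and fold changes are on the log2 scale. The 34 genes, the lists and the markers were chosen with earlier results of these data known, and the grouping of 4 genes and the start regions were added after seeing the values. Named regions are, per gene, the gene-end region of highest mean and the other region of smallest p among the 3 groups, and per comparison the 5 largest rises and falls of well-counted regions without overlap. In simulated counts, 15% to 22% of 1.5-fold changes and 62% to 69% of 2-fold changes were recovered over the 3 comparisons. Far fewer regions changed in the simulation than were called in the data, so these shares do not carry over directly. A region without a call is not shown to be unchanged.

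Replicates of the same number deviated together in NanogKO:Esrrb against NanogKO (r = 0.117, 0.152 and 0.144 over regions for replicates 1 to 3) and in NanogKO:Esrrb:Nanog against NanogKO:Esrrb (0.146, 0.105 and 0.124), so the block is given there where it moved a count, and not in NanogKO:Esrrb:Nanog against NanogKO (0.136, 0.002 and 0.039). Alternatives were DESeq2 1.42.0, RLE factors, library totals, other count filters, the block, only 2 groups, other distances and leaving out each library.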

Additional observations from a re-analysis of the deposited data

How the results depend on the processing

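With the replicate block, NanogKO:Esrrb against NanogKO gave 14 calls at gene ends and 9 at starts, where the model without it gave 8 and 5, and the block moved no other count by more than 1.5 times. With only the 2 groups in the fit, or without NanogKO:Esrrb:Nanog replicate 3, gene ends had 13 calls in that comparison, and with a 2 kb window 15. By library totals, NanogKO:Esrrb:Nanog against NanogKO:Esrrb turned from more rises to more falls at gene ends (11 calls, 5 higher and 6 lower), away from them (41, 19 and 22) and at the other 30 genes (37, 16 and 21), and had 4 calls at starts and 15 at the 4 genes (Slc2a1, Hk1, Hk2 and Pfkp). The other 30 genes also turned in NanogKO:Esrrb:Nanog against NanogKO (88 calls, 42 higher and 46 lower). These turns come with the shift of the median of all regions by -0.10. With only the 2 groups, starts had 4 calls in NanogKO:Esrrb:Nanog against NanogKO:Esrrb, and within 10 kb of the genes 31 regions away from ends were called there.

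Past 2-fold, gene ends had 2 calls in NanogKO:Esrrb and 2 in NanogKO:Esrrb:Nanog against NanogKO and 0 between them, and other regions 35, 53 and 5. Leaving out each library gave, for NanogKO:Esrrb against NanogKO, 7 to 13 calls at gene ends, 83 to 110 away, 4 to 7 at starts, 49 to 58 at the 4 genes and 38 to 65 at the others. For NanogKO:Esrrb:Nanog against NanogKO it gave 19 to 32, 109 to 136, 12 to 21, 61 to 68 and 67 to 104. For NanogKO:Esrrb:Nanog against NanogKO:Esrrb it gave 4 to 26, 28 to 71, 2 to 14, 12 to 33 and 17 to 64, with the highest counts at gene ends, starts and the other 30 genes without NanogKO:Esrrb:Nanog replicate 3. In that comparison the 4 genes had 12 to 17 calls without any 1 of NanogKO:Esrrb replicates 1 to 3 or NanogKO:Esrrb:Nanog replicates 1 and 2, and the other 30 genes had 17 and 20 without the latter 2 and 23 without NanogKO:Esrrb replicate 3. Of 118 calls at named regions, 82 held in every refit and none changed sign in those run; the cause of the losses was not tested. Weak regions of about 1 CPM rest on few counts, which limits the precision of their fold changes.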

Other observations

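Galm, which interconverts the anomers of glucose, had a region inside the gene, chr17:80174564-80175299, at 2.87 ± 0.292 CPM in NanogKO, 12.0 ± 1.61 in NanogKO:Esrrb and 13.6 ± 2.90 in NanogKO:Esrrb:Nanog (SD, n = 3), with log2 fold changes over NanogKO of 2.06 (SE 0.16, adjusted p = 2.5e-10, edgeR) and 2.24 (SE 0.16, adjusted p = 1.7e-11). Pcx, the pyruvate carboxylase, had a region, chr19:4568980-4569681, that was highest in NanogKO:Esrrb, at 2.04 ± 0.101, 6.67 ± 1.24 and 3.51 ± 0.283 CPM in the same order (1.71, SE 0.17, adjusted p = 1.8e-08, with Esrrb, and -0.93, SE 0.17, adjusted p = 0.00031, between the groups with Esrrb). Tkt, a transketolase of the pentose phosphate pathway, rose at chr14:30579993-30580342 from 4.49 ± 0.457 to 12.4 ± 2.60 and 14.9 ± 0.751 CPM (1.47, SE 0.15, adjusted p = 1.6e-08, and 1.74, SE 0.15, adjusted p = 3.4e-10). Emb, a partner protein of monocarboxylate transporters, fell at a gene-end region, chr13:117220193-117221373, to 22.1 ± 1.14 CPM in NanogKO:Esrrb (-0.62, SE 0.11, adjusted p = 7e-05) and stood at 28.4 ± 2.22 in NanogKO:Esrrb:Nanog. These genes are outside the 34, and leaving out single libraries was not run for them.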
